A study of Mus musculus with 8 samples.

Results

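Heme is built from glycine and succinyl-CoA by a chain of enzymes, with the first and the last steps inside mitochondria. The genes examined here are 8 that encode enzymes of this pathway, Alas1, Alas2, Alad, Uros, Urod, Cpox, Ppox and Fech, chosen by name from the 32285 genes of the deposited tables. All 8 were present in every library. They took 422949 of 891794112 counts of unique molecular identifiers (UMIs) in all kept cells, or 0.0474%. Other enzymes were not analysed here. Single-cell RNA sequencing was performed on the c-Kit-positive, lineage-negative fraction of the bone marrow of wild-type mice, with 1 mouse per library. A male and a female were sampled at each of 4 ages, namely young (14 weeks), middle-aged (50 weeks), old (78 weeks for the male and 79 weeks for the female) and very old (95 weeks). No mouse was transplanted, and none carried a transgene according to the labels. The sort was set to leave out cells without c-Kit, among them more mature erythroid cells, but the libraries still held 289 macrophage-like cells and an unnamed cluster of 95 cells led by T cell receptor genes.

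Heme synthesis starts with 5-aminolevulinate synthase, which exists as a housekeeping enzyme encoded by Alas1 and an erythroid enzyme encoded by the X-linked gene Alas2. Alad, Uros and Urod encode cytosolic enzymes that assemble and trim the tetrapyrrole ring, Cpox and Ppox encode mitochondrial oxidases, and Fech encodes ferrochelatase, which inserts iron. Developing erythroid cells make most of the body's heme for haemoglobin, while developing granulocytes need heme for myeloperoxidase and the NADPH oxidase. The erythroid factor GATA1 binds the letters AGATAA and close relatives, and many erythroid genes carry such sites.

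The loci are given for GRCm38, the assembly that the labels call mm10, from GENCODE vM21. Alas1 (ENSMUSG00000032786) lies at chr9:106233455-106248654 on the minus strand and Alas2 (ENSMUSG00000025270) at chrX:150547375-150570638 on the plus strand. Alad (ENSMUSG00000028393) spans chr4:62509169-62519918 and Urod (ENSMUSG00000028684) chr4:116989965-116994413, both on the minus strand. Uros (ENSMUSG00000030979) spans chr7:133686243-133710072 on the minus strand, Cpox (ENSMUSG00000022742) chr16:58670292-58717636 on the plus strand and Ppox (ENSMUSG00000062729) chr1:171275990-171281186 on the minus strand. Alas1, Alas2, Uros, Cpox and Ppox overlap a gene on the opposite strand, and none of the 8 overlaps another gene on its own strand.

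Promoter windows from RefSeq for GRCm38.p6 were matched by symbol for 7 of the 8 genes, Fech being the exception, and the 250 bases before each annotated start were searched on both strands for AGATAA and AGATAG and for the relatives TGATAA and TGATAG. At least 1 of these strings was found in 8717 of 32841 promoter windows of this length (26.5%) and at least 2 matches in 6.40%. The 7 genes had 10 windows, some of which share bases, and 3 of the 10 held a match (30%), a share near that of all windows. The 3 were a window each of Alas2, Cpox and Uros, while the windows of Alas1, Alad, Urod and Ppox held none. The letters CCNCNCCC, bound by factors of the Klf family, were in 6 of the 10 windows beside 45.9% of all windows, and the NRF1 motif in 2 of the 10 beside 3.74%. The 3 windows with GATA letters are shown because they are the ones that hold a match. The matched letters are in capitals, each sequence reads 5′ to 3′ on its gene's strand, and any bases that fall inside an annotated exon of the gene were left out.
Alas2, chrX:150547167-150547374: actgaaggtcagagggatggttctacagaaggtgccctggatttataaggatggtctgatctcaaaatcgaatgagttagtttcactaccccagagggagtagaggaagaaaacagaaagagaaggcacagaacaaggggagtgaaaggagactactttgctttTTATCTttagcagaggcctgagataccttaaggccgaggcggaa
Cpox, chr16:58669958-58670207: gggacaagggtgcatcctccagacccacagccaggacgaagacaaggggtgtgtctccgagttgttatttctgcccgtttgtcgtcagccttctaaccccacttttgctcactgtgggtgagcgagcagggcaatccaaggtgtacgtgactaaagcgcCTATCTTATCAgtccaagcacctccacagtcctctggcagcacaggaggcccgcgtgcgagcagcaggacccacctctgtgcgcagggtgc
Uros, chr7:133702617-133702750: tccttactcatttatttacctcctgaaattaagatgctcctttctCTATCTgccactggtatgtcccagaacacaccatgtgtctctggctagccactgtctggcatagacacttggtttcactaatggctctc
The Alas2 window held 1 match, TTATCT, which is AGATAA on the opposite strand. The Cpox window held 2 matches that overlap, CTATCT and TTATCA. The Uros sequence precedes the second of its annotated starts, which lies within the gene. Its whole window held 2 matches, 1 of them in the bases shown, and the window of the first start held none. A match describes letters in these windows and was not tied to any measurement of binding.

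The libraries held 83062003 to 150135029 UMIs each, with a median of 8505 to 14951 UMIs per kept cell. Filtering on 200 detected genes left 59136 cells, and 467 of the 59465 barcodes occurred in 2 or more libraries, 6 to 27 per pair. The filter took the very old male from 6867 to 6741 barcodes and the very old female from 8866 to 8667, while the other libraries kept nearly all of theirs. Clustering without the 8 genes gave 27 clusters, of which those with enough markers were named in 11 classes by their leading genes with the suffix "-like", since the deposited files carry no cell labels. Erythroid-like cells numbered 14089 and carried the erythroid markers Klf1 (274 ± 21.9 CPM, the UMIs of a gene per 1000000 UMIs, SD, n = 8 mice) and Car1 (3284 ± 533), while Hba-a1, an alpha-globin gene of later stages, reached 68.8 ± 65.4 CPM. Of their 7 clusters, 3 had a median UMI count under 1 in 3 of their library's or over 500 CPM of Mpo, the myeloperoxidase of granulocytes, and are called low or mixed. Both very old libraries were numbered in another library series than the rest, so that series and the age of 95 weeks cannot be told apart.

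Alad, Uros, Urod, Cpox, Ppox and Fech had their highest mean level in erythroid-like cells. For each of these 6 genes the lowest mouse in erythroid-like cells lay above the highest mouse of the next class, erythroid-megakaryocyte precursor-like cells. The classes were built from the same cells, so these differences are given as a description without a test. Alad, which joins 2 aminolevulinate molecules, stood at 235 ± 30.2 CPM (SD, n = 8 mice) in erythroid-like cells, from 203.6 to 281.9, against 98.3 ± 16.5 in the precursor-like cells. Cpox stood at 222 ± 28.6 CPM against 42.9 ± 5.90, and among these 6 genes its level differed most, 10.6-fold between the highest and the lowest class. Urod reached 162 ± 27.8 CPM against 95.1 ± 8.11. The lowest levels of the 6 were those of Fech (63.8 ± 13.5 CPM against 20.2 ± 2.42), Ppox (43.6 ± 10.4 against 20.7 ± 2.77) and Uros (25.7 ± 10.5 against 10.1 ± 1.71). From the highest to the lowest class, Alad differed 7.15-fold, Fech 5.85-fold, Urod 4.91-fold and Ppox 3.69-fold. No fold is given for Uros, whose lowest class, macrophage-like cells, held 12 of its UMIs and had mice at 0, and the lowest class with over 100 of its UMIs, granulocyte-monocyte progenitor-like cells, stood at 6.2 ± 1.51 CPM. From the precursor-like class downwards, the mouse ranges of neighbouring classes overlapped at each step for Uros, Cpox, Ppox and Fech. For Alad and Urod the step from precursor-like to megakaryocyte progenitor-like cells did not overlap, nor did 1 further step of Urod, from basophil and mast cell progenitor-like to HSC-like cells. Across the 11 class means the log2 levels of these 6 genes ran together, with Pearson correlations of 0.818 to 0.959 between pairs, whose points share libraries.

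Alas1 showed another order. Its highest level was in neutrophil progenitor-like cells, at 389 ± 62.2 CPM (SD, n = 8, 284.8 to 478.9), followed by granulocyte-monocyte progenitor-like cells at 293 ± 49.2 and monocyte progenitor-like cells at 186 ± 34.9. The ranges of these 3 classes overlapped from one to the next, and all 8 mice of the monocyte progenitor-like class lay above all 8 of the next class, basophil and mast cell progenitor-like cells (56.2 ± 8.13). HSC-like cells stood at 23.8 ± 5.2, megakaryocyte progenitor-like cells at 21.7 ± 3.54 and erythroid-megakaryocyte precursor-like cells at 20.7 ± 3.91. Erythroid-like cells were the lowest class at 20.1 ± 3.38 CPM (15.9 to 24.8), 19.4-fold below the neutrophil progenitor-like class, although the ranges of these 4 classes overlapped. Within the erythroid-like class, Alas1 stood at 61.1 and 66.7 CPM in 2 of the 3 low or mixed clusters, where Mpo reached 977 and 1323 CPM, and at 35.1 CPM in the third, with 594 CPM of Mpo. In the other 4 clusters Alas1 ranged from 14.8 to 18.8 CPM and Mpo from 38.7 to 102 CPM. Without the low or mixed clusters, Alas1 in erythroid-like cells was 16.2 ± 2.27 CPM. The part of Mpo-bearing cells in the Alas1 level was not tested. The name of the top class depended on the clustering: with cells of 2000 or more UMIs, without Harmony or after Scrublet, the neutrophil progenitor-like class rested on 36 to 78 Alas1 UMIs, and granulocyte-monocyte progenitor-like cells were highest at 360.2 to 399.9 CPM.

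Alas2 was sparse, with 301 UMIs in 253 of the 59136 cells. Erythroid-like cells held 252 of them in 224 cells, which is 0.604 ± 0.484 CPM (SD, n = 8). The young male had 0.398 CPM, the young female 1.13, the middle-aged male 0.109, the middle-aged female 0.381, the old male 0.255, the old female 0.163, the very old male 1.23 and the very old female 1.17. The young female and both very old mice were thus the highest and rested on 63 to 79 UMIs each, against 2 to 13 in the other 5. Outside this class, 21 UMIs came from a single macrophage-like cell of the young female, in which globin transcripts made up 39.8% of 7678 UMIs. Macrophage-like cells therefore had the highest class mean of Alas2 (5.34 CPM), although the other 7 mice were at 0. Neutrophil progenitor-like cells held 0 Alas2 UMIs, which allows up to 0.0487 CPM by counting error alone, and the other classes held 0 to 6 UMIs.

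UMIs count transcript ends, so the levels of the first-enzyme pair could be compared without correction for length. Alas2 made up 4.0% of Alas1 plus Alas2 UMIs in erythroid-like cells (exact 95% binomial interval 3.53 to 4.51), with a mean over mice of 3.02 ± 2.58% (0.606 to 7.18). In erythroid-megakaryocyte precursor-like cells it was 0.460% (0.149 to 1.07) and in HSC-like cells 0.218% (0.0265 to 0.786). It was 0.0120% (0.000304 to 0.0669) in granulocyte-monocyte progenitor-like cells and 0 of 23747 UMIs in neutrophil progenitor-like cells, with an upper bound of 0.0155%. Intervals and floors cover counting error only. Alas1 thus held the larger count in each of the 11 classes.

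**Figure D1:**
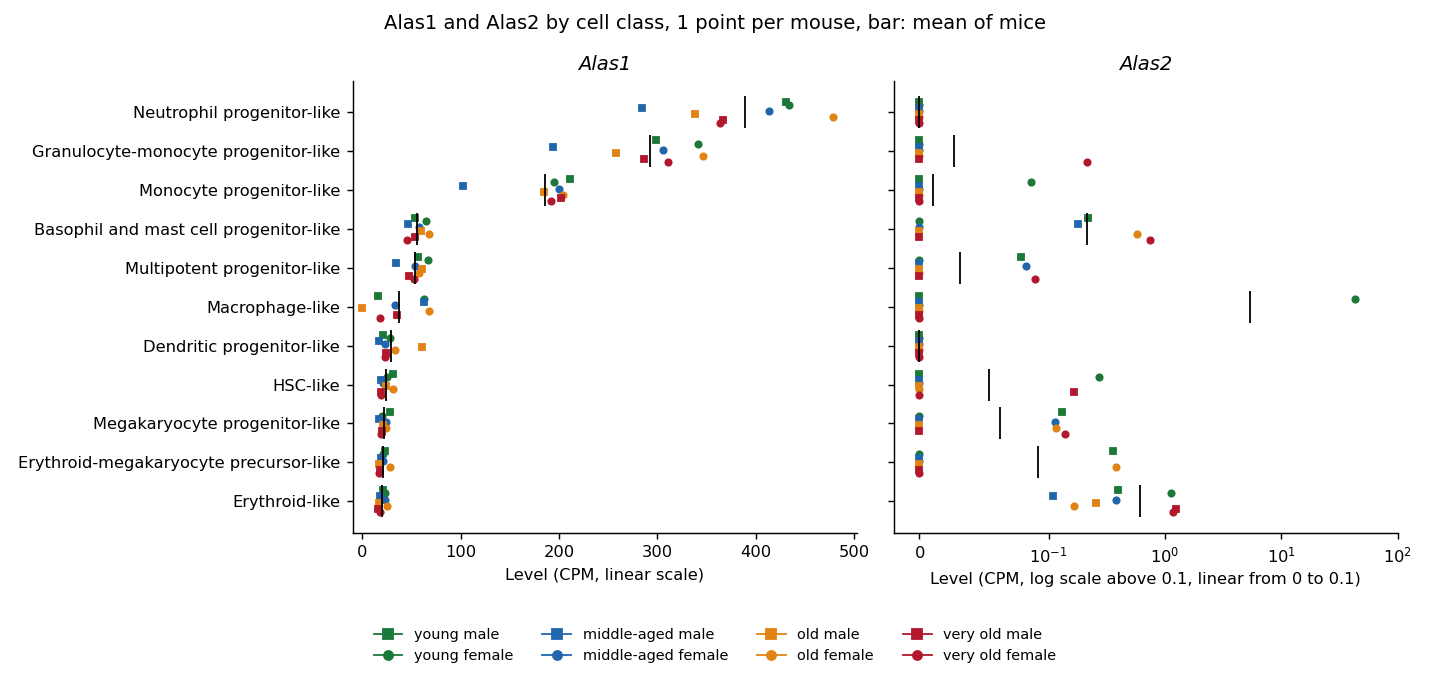
Level of Alas1 (linear axis) and Alas2 (linear from 0 to 0.1, log axis above) in CPM for 11 cell classes, with 1 point per mouse and a bar at the mean of mice. Alas1 stands highest in neutrophil progenitor-like cells (389 CPM) and lowest in erythroid-like cells (20.1 CPM), while Alas2 is above 0 in all 8 mice of the erythroid-like class and its macrophage-like mean rests on 1 mouse at 42.7 CPM.

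For each enzyme the 3 genes most like it were taken by Pearson correlation of mean log2(CPM + 1) over the 11 classes. For Alas1 these were Cldn15, Elane and Dmkn (0.99 each), all highest in neutrophil progenitor-like cells. Elane encodes neutrophil elastase. For Alad, Uros, Urod, Cpox, Ppox and Fech, all 3 genes were highest in erythroid-like cells, with correlations of 0.952 to 0.987. They were Pitrm1, Orc5 and Ttll12 for Alad, Lias, Thg1l and Cul4a for Uros, 1700086O06Rik, Wdr92 and Orc5 for Urod, Asb17, Slc26a1 and Asb17os for Cpox, C1qtnf12, Asb17os and Slc26a1 for Ppox, and Nudt9, Aldh1a7 and Minpp1 for Fech. For Alas2 the most similar genes, Slc1a3, C3ar1 and Lilra5, were macrophage genes and rested on the single cell above.

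To order the enzymes along the lineage, HSC-like, erythroid-megakaryocyte precursor-like and erythroid-like cells were placed on one diffusion pseudotime axis and divided into 10 bins of 2615 or 2616 cells. The midpoint of a gene's rise was the bin position, interpolated between bins, at which a mouse first reached 50% of the way from its first to its highest bin. Landmark genes rose in the order Gata1 (2.77 ± 0.26, SD, n = 8 mice), Klf1 (4.86 ± 0.79) and Car1 (5.06 ± 0.60), followed by Hba-a1 (8.95 ± 1.40). Bin 3 had a median of 775 UMIs per cell, against 3345 to 37106 in the others, and 76.4% of its cells came from low or mixed clusters. These clusters also made up 61.3% of bin 6, 38.9% of bin 5 and 40.5% of bin 7, beside 0.191% to 21.5% of the other bins.

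All 6 enzymes after the first rose in all 8 mice and were highest in the last bin. Each midpoint is therefore relative to the level at the end of the sorted cells and depends on where the axis ends. Alad rose from 38.8 to 311 CPM with its midpoint at 7.12 ± 0.65. Urod rose from 46.8 to 208 CPM with its midpoint at 7.23 ± 1.04. These 2 cytosolic enzymes had reached 91.6 and 92.0 CPM in bin 4, where Cpox stood at 37.9 and Fech at 20.2 CPM. Cpox rose most, from 29.6 to 321 CPM, with its midpoint at 8.19 ± 0.31. Fech followed at 8.33 ± 0.25, from 17.1 to 88.7 CPM, and Ppox at 8.66 ± 0.34, from 14.6 to 62.3 CPM. Among these 6 genes Uros was last at 9.12 ± 0.19, with midpoints of 8.83 to 9.37 over the mice. At 25% of the rise its position was 7.17 ± 2.13. It stood at 7.89 CPM in the first bin, 14.0 in bin 8, 23.0 in bin 9 and 43.6 in bin 10. In the order of the reactions, by contrast, Uros acts before Urod.

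**Figure D2:**
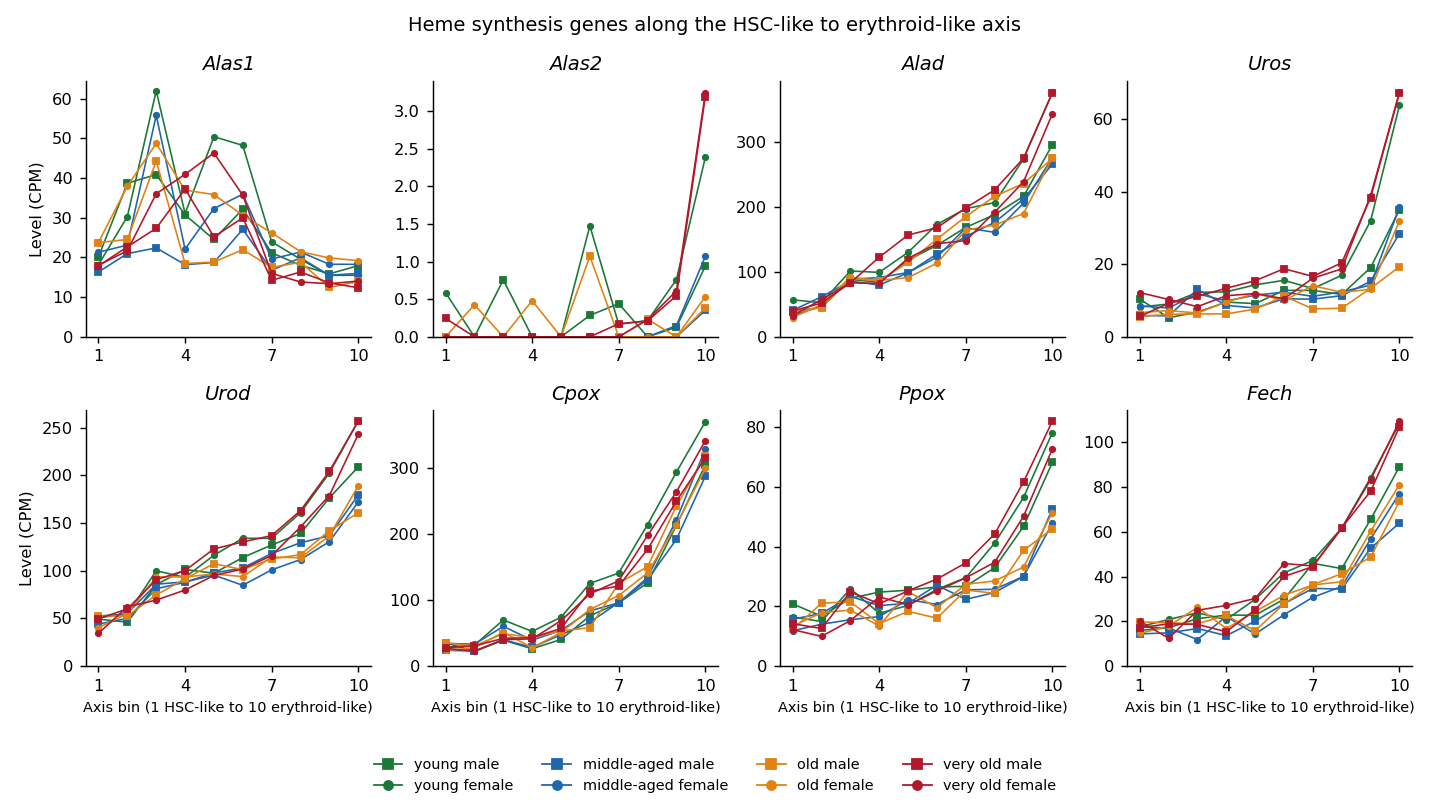
Level of each of the 8 genes in CPM (linear axes, each with its own scale) in 10 bins from HSC-like to erythroid-like cells, with 1 line per mouse. Alad and Urod average 91.6 and 92.0 CPM by bin 4, Uros averages 14.0 CPM in bin 8 and reaches 19.3 to 67.4 CPM over the mice in bin 10, and Alas1 falls to a mean of 15.9 CPM.

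Differences in midpoint were tested within mice with the exact two-sided paired permutation test, whose smallest p for 8 mice is 0.0078. Among the 21 pairs of genes with a rise in all mice, 11 had an adjusted p under 0.05 after Benjamini-Hochberg correction over the 21. Uros reached its midpoint 2.0 ± 0.68 bins after Alad, 1.89 ± 0.93 after Urod, 0.930 ± 0.27 after Cpox and 0.792 ± 0.29 after Fech, each later in 8 of 8 mice (exact permutation p = 0.0078, adjusted p = 0.018). It followed Ppox by 0.463 ± 0.23 bins in 7 of 8 mice (exact permutation adjusted p = 0.030). Cpox, Fech and Ppox each followed Urod in 8 of 8 mice, by 0.956, 1.09 and 1.42 bins, and Ppox followed Alad by 1.53 and Cpox by 0.467 bins in 8 of 8 (exact permutation adjusted p = 0.018 each). Fech followed Alad by 1.21 ± 0.87 bins in 7 of 8 mice (exact permutation adjusted p = 0.030). Over 18 alternatives the call was lost or its direction turned in 11 for Fech after Alad, in 9 for Cpox after Urod and in 4 or 5 for each of the other 9 pairs. Without the low or mixed clusters, where Alad and Urod had midpoints of 6.41 and 6.34, the number of pairs past the threshold was again 11. Of the pairs without Alas2, 4 did not pass, namely Cpox after Alad (1.07 ± 0.91 bins, exact permutation adjusted p = 0.055), Fech after Cpox (0.138 ± 0.21, adjusted p = 0.15), Ppox after Fech (0.329 ± 0.36, adjusted p = 0.088) and Urod after Alad (0.112 ± 0.85, adjusted p = 0.85). Alas2 had 259 UMIs on the whole axis, 192 of them in the last bin. Its midpoint lay at 9.38 to 9.50 in 5 mice, later than that of Uros in the same 5, and at 1.63, 2.62 and 5.50 in the old female, the young male and the old male, where 1 or 2 UMIs in an early bin set it. In the middle-aged male, 1 of the 5, the midpoint of 9.50 also rested on 2 UMIs, both in the last bin. No pair with Alas2 passed. Without the young female, the very old male or the very old female, 0 pairs passed. With 7 mice the smallest p of the test is 0.016. The bins were drawn again in these runs, where the midpoint of Uros was 8.26, 8.33 and 8.28, while Ppox after Urod still differed by 1.57 to 1.64 bins (exact permutation adjusted p = 0.055 to 0.082). With all cells thinned to 2000 UMIs, which left out 4984 shallower cells, 0 of 15 pairs passed.

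**Figure D3:**
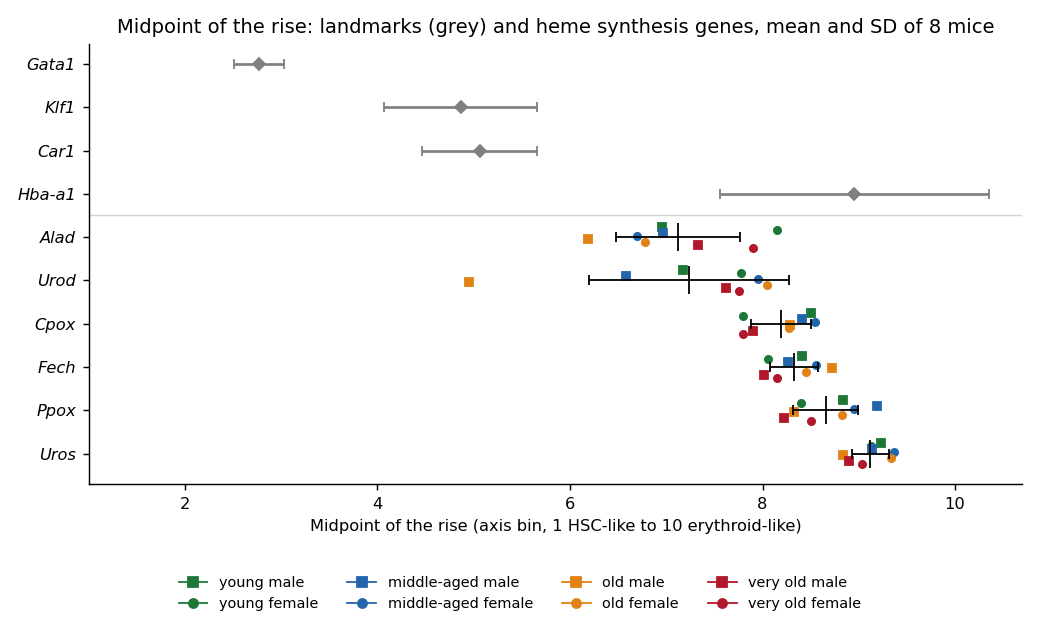
Midpoint of the rise along the axis (bin 1 HSC-like to bin 10 erythroid-like) for 4 landmark genes in grey (mean and SD of mice) and for 6 heme synthesis genes (1 point per mouse, black mean and SD). The means of Alad and Urod lie near bin 7 and those of Cpox, Fech and Ppox between bins 8 and 9, with mice from 7.80 for Cpox to 9.19 for Ppox, and the Uros midpoints lie between 8.83 and 9.37.

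Alas1 did not accompany these rises. It went from 19.9 CPM in the first bin to 42.2 in bin 3, then 32.7 in bin 6, 19.4 in bin 7 and 15.9 ± 2.40 in the last bin (SD, n = 8). A rise of 2-fold or more was present in 6 of 8 mice and, without the low or mixed clusters or after Scrublet, in 0. It was present in 3 mice with a marker score as axis, in 3 after thinning to 2000 UMIs and in 5 without Harmony. With 20 bins it was present in 7 mice. With multipotent progenitor-like cells added it was present in 8, from 20.6 to 89.3 CPM. Mpo went from 99.4 CPM in the first bin to 701 in bin 3 and 72.1 in the last bin, and its part in the Alas1 peak was not tested. The Alas2 share of both synthases was 0 to 0.473% in each of bins 1 to 5, 0.608 to 1.17% in bins 6 to 8, 2.84% (2.02 to 3.88) in bin 9 and 11.5% (10.0 to 13.2) in bin 10, on 192 Alas2 and 1473 Alas1 UMIs. By mouse the share in bin 10 averaged 8.82 ± 7.56% (SD, n = 8), with 20.5% and 18.7% in the very old male and female, 13.3% in the young female and 2.15% to 5.52% in the other 5. The interval of the pooled share covers counting error only, and no mouse lay within it. Alas1 UMIs outnumbered those of Alas2 in each bin.

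Within the last bin, the cells of each mouse were divided by their globin transcripts, and the 10% of cells with the most globin, 15 to 58 cells per mouse, were set beside its other cells. Alas2 averaged 5.77 ± 3.21 CPM (SD, n = 8 mice) on 62 UMIs in the globin-high cells, against 1.05 ± 1.08 in the others, and was higher in 8 of 8 mice. These UMIs were as few as 1 in the old male, 2 each in the middle-aged male and the old female and 4 in the young male. The middle-aged female held 7 and each of the remaining mice 15 or 16. Uros averaged 64.3 against 41.4 CPM, Alad 397 against 301, Urod 247 against 204 and Fech 114 against 86.0, each higher in 8 of 8 mice. Ppox averaged 79.5 against 60.5 CPM and Cpox 377 against 316, each higher in 7 of 8. Alas1 averaged 15.9 CPM in both and was higher in 3 of 8. The division within mice was chosen after seeing the data and orders cells by transcripts of the same libraries, so these are values without a test, and 49 to 64 of the Alas2 UMIs of this bin came from each of the young female, the very old male and the very old female.

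The 4 ages were compared in erythroid-like cells with UMIs summed per mouse in edgeR, over 12427 genes and with sex in the model. For the contrast of old and very old against young mice, 2 of 12427 genes passed (0.0161%), 741 had an unadjusted p under 0.05, and DESeq2 called 9. Of the 8 heme synthesis genes, 0 passed in either tool. Their log2 fold changes ran from -0.54 for Alas2 to -0.05 for Cpox, with a median of -0.17 beside -0.0047 for all genes tested. Old against young gave log2 fold changes of -0.90 ± 0.17 (SE) for Uros, -0.58 ± 0.12 for Ppox, -0.45 ± 0.11 for Urod and -0.43 ± 0.09 for Fech, while very old against young gave 0.55 ± 0.16, 0.16 ± 0.11, 0.12 ± 0.11 and 0.22 ± 0.09 for the same genes. Neither separate contrast called any of the 8 in edgeR (lowest adjusted p = 0.089 for old and 0.12 for very old mice), beside 0 and 52 of all genes. These contrasts share the young mice.

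A test for any difference among the 4 ages called 1781 of 12427 genes (14.3%), and 5 of the 8 were among them: Uros (adjusted p = 0.0037), Fech (0.0039), Ppox (0.0050), Urod (0.011) and Alas2 (0.024). Uros, in CPM scaled by TMM factors, was 21.8 in the young male and 36.2 in the young female, 17.4 and 19.1 in the middle-aged pair, 13.1 and 17.9 in the old pair and 42.5 and 40.8 in the very old pair. Both middle-aged and both old mice lay below both young mice, and both very old mice lay above them. Fech was 63.2 and 81.1 CPM in the young male and female, 47.1 and 49.1 at middle age, 51.4 and 55.2 in old mice and 82.5 and 84.9 in very old mice, again with both middle-aged and both old mice below and both very old mice above the young pair. Ppox was 46.8 and 55.8 in young, 33.5 and 31.5 in middle-aged, 34.4 and 34.4 in old and 62.9 and 52.5 CPM in very old mice, and here the young and very old ranges overlapped. Urod was 167 and 201 in young, 140.3 and 125 in middle-aged, 134 and 137 in old and 212 and 189.9 CPM in very old mice. Alas2 followed with 0.393 and 1.15, 0.107 and 0.361, 0.251 and 0.158, and 1.30 and 1.25 CPM in the 4 ages, on as few as 2 UMIs in the middle-aged male. Uros, Fech and Ppox passed in each of the 18 alternatives. Only these 3 passed without the middle-aged female, where 2.24% of all genes passed, or without the very old male (1.96%), and 7 of the 8 passed without the young male (17.9%).

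The other 3 did not pass the test for any age. Alad averaged 252 CPM in young, 201 in middle-aged, 212 in old and 278 in very old mice (adjusted p = 0.066). Cpox averaged 239, 189, 207 and 255.7 CPM (adjusted p = 0.12). Both passed in DESeq2 (adjusted p = 0.0042 and 0.029), where 12% of all genes passed, and in edgeR when genes with low counts were kept (0.00016 and 0.0014, beside 16.9%). Alas1 averaged 21.9, 19.9, 20.2 and 18 CPM (adjusted p = 0.30), with mice of each age overlapping those of the next.

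**Figure D4:**
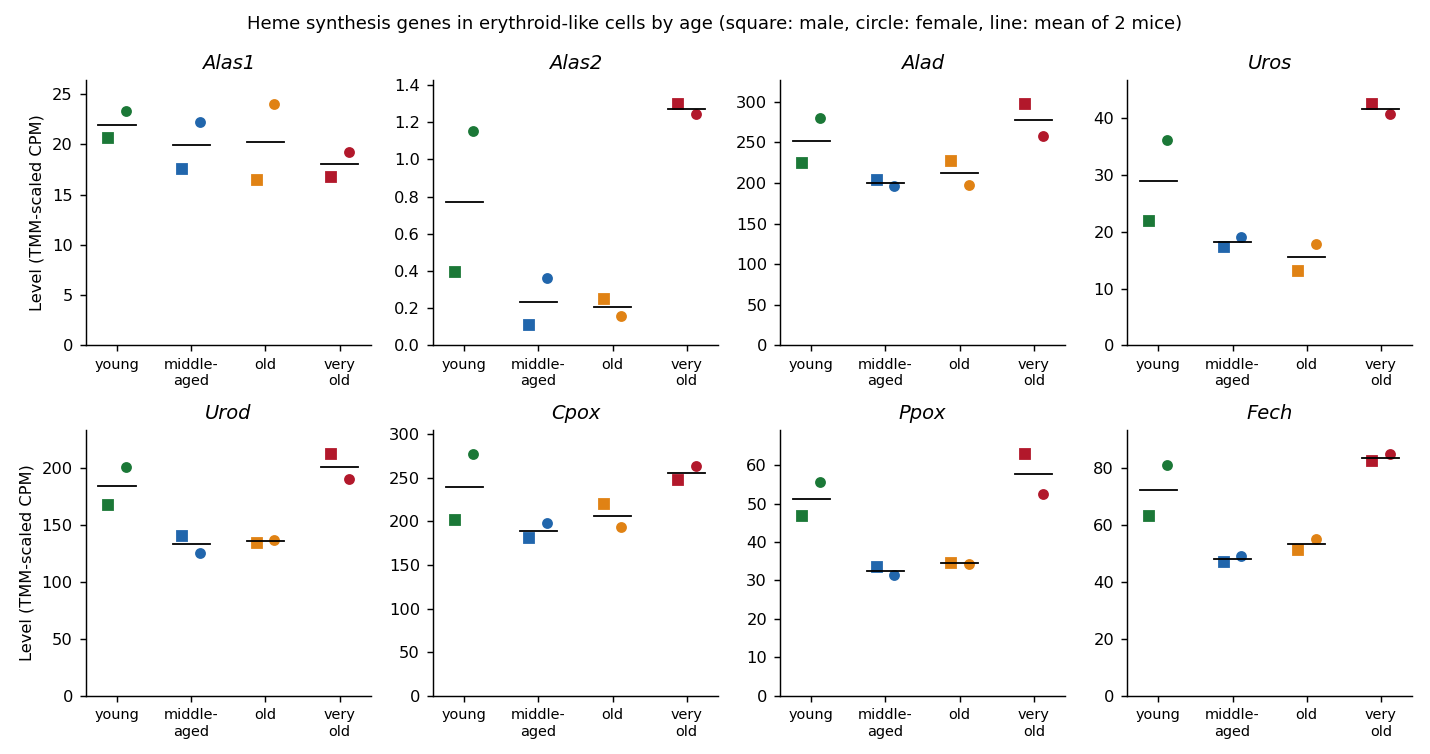
Level of the 8 genes in erythroid-like cells as CPM scaled by TMM factors (linear axes from 0, each with its own scale) at 4 ages, with a square for the male, a circle for the female and a line at the mean of 2 mice. Uros averages 29.0, 18.2, 15.5 and 41.7 CPM over the ages and Fech 72.1, 48.1, 53.3 and 83.7, while the Alas1 points of neighbouring ages overlap.

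The libraries also differed in their share of erythroid-like cells and in the spread of cells along the axis. Erythroid-like cells made up 21.3% and 32.2% of the young male and female libraries and 17.9% and 22.6% of the middle-aged. They made up 14.8% and 18.1% of the old and 32.7% and 28.3% of the very old. Outside the low or mixed clusters lay 937 of 1508 and 1890 of 2801 of these cells in the young male and female. The numbers were 721 of 1236 and 891 of 1462 at middle age and 653 of 985 and 828 of 1440 in old mice. In very old mice they were 1775 of 2206 and 2038 of 2451. Of each mouse's cells on the axis, the last 3 bins held 38.8% in the young female, 42.6% and 44.7% in the very old male and female, and 17.4% to 23.2% in the other 5. These shares are of all cells on the axis and so also carry the number of HSC-like and precursor-like cells. HSC-like cells made up 4.96% of the young female library and 14.1% of the old male library. Hba-a1 stood at 165 CPM in the young female and 146 and 150.4 in the very old mice, against 10.9 to 28.8 in the other 5. Median UMIs per erythroid-like cell ran from 4976.5 in the old female to 33882 in the very old male. To match the mice, erythroid-like cells alone were cut into bins by their place on the axis, apart from the bins above. Equal numbers of cells per mouse were taken from each of these bins, 835 cells per mouse in all. This setting is called equal cells per bin from here on. With it, 566 of 11761 genes were called for any age (4.81%). Uros (adjusted p = 0.0089), Fech (0.013) and Ppox (0.024) were among them, while Urod (0.051) and Alas2 (0.15) were not. Within the last bin of the whole axis, Uros stood at 35.1 and 63.8 CPM in the young male and female. It stood at 28.4 and 35.8 at middle age, at 19.3 and 32.0 in old mice and at 67.3 and 67.4 in very old mice. There the middle-aged female lay just above the young male. The part of depth, globin-bearing cells and library series in the remaining differences was not tested.

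Middle-aged mice were compared with young mice in the same fit, which shares its young mice with the contrasts above. Of all genes 97 passed (0.781%), with 64 lower (0.515%). Fech (log2 fold change -0.58 ± 0.09, SE, adjusted p = 0.040) and Ppox (-0.67 ± 0.11, adjusted p = 0.045) were among the lower ones, with both middle-aged mice below both young mice. The other 6 had values of -0.66 ± 0.17 for Uros (adjusted p = 0.086), -0.48 ± 0.11 for Urod (0.069), -0.33 for Alad (0.19) and for Cpox (0.22), -0.14 for Alas1 (0.54) and -1.65 ± 0.56 for Alas2 (0.16). The median of the 8 was -0.53 beside -0.0006 for all genes tested. Both calls were lost in 8 of 18 alternatives, among them equal cells per bin (adjusted p = 0.061 for each), no sex term (0.11 for each), and leaving out the young female (0.32 and 0.35) or either middle-aged mouse (0.25 to 0.56). In the 10 alternatives that kept all mice the log2 fold changes ran from -0.61 to -0.49 for Fech and from -0.69 to -0.61 for Ppox. Without single mice the values of Uros ran from -0.93 to -0.33 and those of Urod from -0.66 to -0.29. Without the young male 7 of the 8 genes passed, beside 6.73% of all genes.

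Females and males were compared over all ages, where 21 genes passed (0.169%) and 0 of the 8. Alas1 was higher in females by a log2 fold change of 0.31 ± 0.08 (SE), which did not pass in edgeR (adjusted p = 0.30), and 2 of the 8, Alas1 and Uros, passed when genes with low counts were kept (adjusted p = 0.025 and 0.034), as did 1.47% of all genes. Female libraries also held more Mpo in erythroid-like cells by 0.66 ± 0.08 (adjusted p = 0.013), which did not pass after Scrublet (0.23, adjusted p = 0.60) or without the low or mixed clusters (0.39, adjusted p = 0.26). Alas1 then differed by 0.12 and 0.14.

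In all cells together, the test for any age called 6.01% of 15361 genes, with Uros (adjusted p = 0.031), Fech (0.034), Ppox (0.034), Urod (0.043) and Alas2 (0.043) among them. These sums also carry the different shares of erythroid-like cells given above. Older against young called 1.21% of genes, middle-aged against young 0.397% and female against male 0.13%, with 0 of the 8 in each. In the other populations Alas2 did not pass the count filter, so that 7 genes were tested. In erythroid-megakaryocyte precursor-like cells 0 of 7 passed for older against young (0.226% of genes), middle-aged against young (0.217%), any age (1.12%) or sex (0.588%). In HSC-like cells 0 of 7 passed in the same 4 contrasts (8.52%, 1.43%, 6.33% and 0.52% of genes), with log2 fold changes of -0.28 to 0.17 for older against young. In granulocyte-monocyte progenitor-like cells, where Alas1 was high, 0 of 7 passed as well (0.0606%, 0.0606%, 1.2% and 0.192%). There Alas1 differed by -0.09 ± 0.14 for older and -0.46 ± 0.16 for middle-aged against young mice (adjusted p = 1.0 and 0.40). The middle-aged male had the lowest Alas1 in this class, at 193.6 CPM, and in monocyte progenitor-like cells, at 102 CPM.

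Genes that supply, carry or use heme and iron were read from lists of 56 genes in erythroid-like cells, all of which were tested. For older against young mice 0 genes passed in any of the 9 lists in these cells. In precursor-like cells 3 of 4 globins and 1 of 6 genes of heme breakdown and export passed, all lower (0.226% of all genes passed). In HSC-like cells genes of several lists passed, in both directions (8.52% of all genes). The values below are of erythroid-like cells, and the genes named from here on, other than Mpo and Hba-a1, were chosen after their values were seen. For middle-aged against young, 1 gene passed, Abcb6 (-0.61 ± 0.11, SE, adjusted p = 0.048), which encodes a porphyrin transporter. This call was lost in 11 of 18 alternatives (adjusted p up to 0.56), while the value stayed between -0.77 and -0.43. It was 1 of 8 genes of intermediate and heme transport, whose median log2 fold change was -0.28 beside -0.0006 for all genes. For female against male, Mpo alone passed, as given above.

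For any difference among the ages, 24 of the 56 passed beside the 14.3% of all genes. With equal cells per bin it was 14 of 54 (4.81% of all genes), and it was 3 without the very old male (1.96%), 4 without the middle-aged female (2.24%), 8 without the middle-aged male (4.09%) and 14 without the very old female (6.17%). The means below are over 2 mice that can differ, as in the young pair, where Hba-a1 was 23.9 CPM in the male and 165 in the female. Of 6 genes of glycine and succinyl-CoA supply 1 passed, Slc25a38, a mitochondrial glycine carrier (means of 54.1, 36.7, 39.1 and 54.6 CPM in young, middle-aged, old and very old mice). Of 9 genes of iron uptake 4 passed, among them the transferrin receptor gene Tfrc (129, 95.7, 112 and 168 CPM). Its midpoint on the axis, 7.82 ± 0.41, lay between those of Urod and Cpox. Of 9 genes of iron-sulfur cluster assembly 3 passed, among them Glrx5 (543, 437, 467 and 639.5 CPM), a mitochondrial glutaredoxin. Of 8 transport and chaperone genes 4 passed, with Hebp1, which encodes a heme-binding protein, at 145, 74.9, 77.4 and 185 CPM and Tmem14c, a porphyrinogen transporter gene, at 713, 482, 522 and 904 CPM. All 3 genes of iron storage and export passed, namely Fth1 and Ftl1 for ferritin and Slc40a1 for ferroportin, and 3 of 4 globin genes passed, with Hba-a1 at 94.5, 18.4, 22.9 and 148 CPM. Their means were lowest at middle age or in old mice and highest in very old mice. Of 6 genes of heme breakdown and export 2 passed, in different orders. Blvrb averaged 1125, 820.4, 849 and 1315 CPM, while Hmox1, the inducible heme oxygenase, averaged 2.28, 1.70, 0.619 and 0.556 CPM. Hmox1 was also a leading gene of the macrophage-like cluster, and the part of macrophage transcripts in its low levels was not tested. Of 6 erythroid regulators 1 passed, Epor, the erythropoietin receptor gene (104, 80.5, 82.2 and 118 CPM). Of 5 heme proteins of granulocytes 3 passed. Cyba, a subunit of the NADPH oxidase, averaged 115, 180.4, 176 and 90.5 CPM and Epx, the eosinophil peroxidase, 0.153, 0.325, 0.121 and 0.0082 CPM, both highest at middle age and lowest in very old mice. Epx had only 104 UMIs on the whole axis and was a leading gene of a basophil and mast cell progenitor-like cluster. The part of stray transcripts in its levels was not tested. Mpo averaged 173, 129, 171 and 109 CPM.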

How the data were processed

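Single-cell libraries were prepared with 10x Genomics 3′ chemistry from the Lin-c-Kit+ fraction of 8 mice. The authors deposited, per library, raw UMI counts per gene and cell, made with Cell Ranger (6.0.0 per the file headers) against mm10 as filtered barcodes, without normalization or cell labels. Because 1 UMI marks 1 transcript end, levels were not scaled by length. The members and gene lists were chosen with earlier results of these data known.

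Cells with 200 or more genes were kept. Clusters were computed with custom code in numpy 2.4.6 on Python 3.11.15 from 2000 variable genes, without the 8 enzymes. The settings were 30 principal components, a Harmony correction for library (theta of 1), 20 neighbours and Leiden (leidenalg 0.10.2) at resolution 0.8. A cluster was named from at least 3 markers among its 100 leading genes, a number set after the clusters were seen. Doublets were kept. Where they were removed, Scrublet called 4, 8 and 8 cells in 3 libraries, and the highest-scoring share expected (0.8% per 1000 cells) was removed there instead. These were both middle-aged libraries and the old female, which lost 334 to 509 cells, against 50 to 262 in the others. Diffusion pseudotime used 10 components and 30 neighbours, with 10 bins of cells. A rise was 2-fold or more between the first and highest bins, and its midpoint lay at 50%.

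UMI sums per mouse were tested with edgeR 4.0.16 in R 4.3.3 (TMM factors, filterByExpr, quasi-likelihood F-test, age and sex as terms) with Benjamini-Hochberg adjustment over all genes tested and a threshold of 0.05. DESeq2 1.42.0 was the alternative tool. The p-values of edgeR and DESeq2 rest on 1 male and 1 female per age. With age and sex as terms, their spread is what remains over all 8 mice, and no age holds 2 mice of the same sex. Midpoints were compared by an exact permutation test over 8 mice. Intervals are exact binomial (95%), and a count of 0 allows 3 counts. Both procedures were run on simulated data. The simulated midpoints came from curves that level off before the last bin, so they do not cover genes that are still rising there. The alternatives were resolution 1.6, no Harmony, cells of 2000 or more UMIs, Scrublet, equal cells per mouse and bin, 20 bins, 25% and 75% of the rise, a marker score as axis, multipotent progenitor-like cells added, thinning to 2000 UMIs, CPM without globins, no filter, no sex term, age as a linear term, each older age alone, and each mouse left out. For equal cells per mouse and bin, the bins were cut along the axis from erythroid-like cells alone. Removing clusters of low depth or with over 500 CPM of Mpo was an alternative chosen after seeing the data. Genes named were the 8 members, markers and landmarks, the 3 genes most alike over classes, and pathway genes past the threshold. Promoter letters were read from RefSeq windows of 250 bases.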

Additional observations from a re-analysis of the deposited data

Results flagged for a closer look

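In 43 groups of 4 to 8 mice, 4 held a mouse far from the rest by Dixon's test, and chance gives about 1 in 20 such groups. The old male reached the midpoint of Urod at 4.95, against 6.58 to 8.05 in the other 7 mice. The old male also had 61.0 CPM of Alas1 in dendritic progenitor-like cells, against 17.3 to 33.5 CPM. In monocyte progenitor-like cells the middle-aged male had 102 CPM of Alas1, against 184.5 to 211.4 CPM in the others. In macrophage-like cells the young female had 42.7 CPM of Alas2, all from 1 cell, and the other 7 mice were at 0.

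The older mice lay on opposite sides of the young mouse in the 2 sexes for 2 genes in erythroid-like cells. Alad in older minus young mice differed by -51.9 CPM in females and 37.4 CPM in males. Cpox differed by -48.5 CPM in females and 32.6 CPM in males. These differences between the sexes were not tested, and each rests on 1 young mouse per sex.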

How the results depend on the processing

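The highest class of the 6 enzymes after the first and the absence of calls for older against young mice held in every alternative run. The Alas2 share in erythroid-like cells ran from 3.33% to 4.29% without single mice and from 3.67% to 5.06% in the other alternatives. For middle-aged against young, the number of the 8 genes called was 7 without a filter on low counts, beside 1073 of 19494 genes. It was 4 with DESeq2, beside 356 of 15036 genes. It was 0 with no sex term, at resolution 1.6, with 2000 or more UMIs, with doublets removed and with equal cells per bin. More doublets were removed from both middle-aged libraries and the old female (334 to 509 cells) than from the others (50 to 262). Without single mice the number called ran from 0 to 7. It was 0 when the young female or either middle-aged mouse was left out and 7 without the young male (6.73% of all genes). For any age it was 3 with equal cells per bin (4.81% of all genes) and 5 to 7 in the other alternatives with all mice. The 7 called without a filter and with DESeq2 stood beside 16.9% and 12% of all genes. Without single mice the number for any age ran from 3 to 7. For female against male the number was 2 without a filter, beside 1.47% of all genes. All genes called for middle-aged against young fell from 97 to 0 with no sex term, at resolution 1.6 or with doublets removed, to 7 with 2000 or more UMIs and to 25 with equal cells per bin, and rose to 356 with DESeq2 and 1073 without a filter, with 0 to 850 without single mice. For any age, 566 genes passed with equal cells per bin, 3292 without a filter and 247 to 2322 without single mice. For older against young the counts ran from 0 to 109 and for female against male from 5 to 287. The causes were not tested.

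For older against young, log2 fold changes turned positive for very old mice alone (Uros 0.55, Fech 0.22, Ppox 0.16) and with age as a linear term (Uros 0.040, Fech 0.015, Ppox 0.0061). Without single mice they ran from -0.45 to 0.14 for Uros and from -0.25 to 0.046 for Fech.

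Pairs of midpoints past the threshold numbered 7 at 25% of the rise, 0 after thinning to 2000 UMIs and 0 to 10 without single mice. With multipotent progenitor-like cells added they were 19 of 28. That set also held pairs with Alas1, whose midpoint there was 3.37 ± 0.04, so it is not the set of 21 pairs. Results without single mice varied further. The pairs past the threshold were 0 without the young female or either very old mouse. There the Uros midpoint of the middle-aged male fell to between 2.76 and 3.00 on 14 to 21 UMIs in bin 3. Some orders turned. Urod after Alad was -0.91 bins at 25%, -0.14 after Scrublet, -0.81 after thinning, -0.070 without low or mixed clusters and -0.084 to 0.35 without single mice. At 25% Fech after Cpox was -0.27, Ppox after Cpox -0.83 and Ppox after Fech -0.56. After thinning Ppox was -0.70 from Alad, -0.81 from Cpox and -0.83 from Fech. Without single mice Uros lay from -0.11 to 1.02 after Cpox, from -0.17 to 0.97 after Fech and from -0.48 to 0.56 after Ppox. Uros lay from 1.06 to 2.01 after Alad and from 1.09 to 1.99 after Urod in these runs, and Fech from 0.64 to 1.34 after Urod. Across ages the labels number no replicates, and sex, by which each age holds 1 male and 1 female, was a term of the fit. The age comparison of Alas2 rests on 2 to 79 UMIs per erythroid-like library.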
